A study of Homo sapiens with 9 samples.

Results

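The type I interferon genes of human chromosome 9 were followed here in Hi-C maps of growing and senescent fibroblasts. The 7 genes described are IFNB1, IFNW1, IFNA21, IFNA2, IFNA8, IFNA1 and IFNE, chosen by name and position among 63827 annotated genes on chromosomes 1 to 22 and X. In hg19 they lie in the order given, from chr9:21077103-21077941 for IFNB1, nearest the telomere of the short arm, to chr9:21480838-21482312 for IFNE. The bins of 40 kb that span them number 12 of 75918, from chr9:21040001-21520000, and each of the 7 genes falls in a bin of its own. The same bins hold 9 further protein-coding interferon genes (IFNA4, IFNA7, IFNA10, IFNA16, IFNA17, IFNA14, IFNA5, IFNA6 and IFNA13), 12 interferon pseudogenes, the intronless gene KLHL9 and the microRNA gene MIR31, so a value of a bin belongs to all of the sequence in it.

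Hi-C counts pairs of DNA fragments that were ligated because they lay close together in the nucleus. The cells were IMR90, a human diploid lung fibroblast line, at passage 20-25, carrying ER:HRAS(G12V), an oncogenic HRAS fused to the oestrogen receptor that 4-hydroxytamoxifen (4OHT) switches on. Growing cells without 4OHT gave 3 libraries, of which growing replicate 3 also carried the MSCV Vector, and cells given 100 nM 4OHT for 6 days, which enter RAS-induced senescence (RIS), gave 2 libraries. All groups therefore carried the inducible oncogene, and the labels do not describe the cultures behind the libraries, which the methods of the study call biological replicates. Growing replicate 1 held 154318992 contacts, growing replicate 2 175410468 and growing replicate 3 180775314, while RIS replicate 1 held 109967509 and RIS replicate 2 150689993. Hi-C holds no measure of transcription, so the fibroblast label was not checked against marker genes, and whether any interferon was made is not known from these data. The capture Hi-C libraries of the study gave no value for any bin around these genes.

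Type I interferons are secreted antiviral cytokines that all signal through a shared receptor, made of IFNAR1 and IFNAR2, whose kinases JAK1 and TYK2 start the signal that switches on the interferon-stimulated genes. IFNB1 encodes interferon beta, the form that fibroblasts make first when nucleic acid sensors activate IRF3. The IFNA genes encode the many closely related interferon alpha proteins, made above all by blood cells, IFNW1 encodes interferon omega, and IFNE encodes interferon epsilon, known from the epithelium of the reproductive tract. Late senescent cells are known to produce type I interferon after DNA in the cytosol has activated the cGAS and STING pathway. Most of these genes have no intron and arose by duplication, and MIR31HG, a long non-coding RNA gene known from senescence as a regulator of p16INK4A, runs from chr9:21380072-21559890 on the minus strand over 4 of the 7 members (IFNA2, IFNA8, IFNA1 and IFNE).

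The promoters were searched for a motif that most, but not all, of the members hold. Interferon regulatory factors (IRFs) bind repeats of the letters AANNGAAA, and the 120 bases before each start are printed below in the direction of the gene, read from GRCh37 with the starts of the annotation, with matches on either strand in capitals (overlapping matches joined).
IFNB1, chr9:21077942-21078061, minus strand: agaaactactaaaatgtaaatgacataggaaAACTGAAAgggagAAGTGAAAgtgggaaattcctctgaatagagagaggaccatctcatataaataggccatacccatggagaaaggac
IFNW1, chr9:21141832-21141951, minus strand: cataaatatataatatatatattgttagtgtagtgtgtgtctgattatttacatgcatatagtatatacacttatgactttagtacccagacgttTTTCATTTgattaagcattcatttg
IFNA21, chr9:21166660-21166779, minus strand: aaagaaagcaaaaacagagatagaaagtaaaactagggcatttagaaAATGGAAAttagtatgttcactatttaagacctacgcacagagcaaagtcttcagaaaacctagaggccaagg
IFNA2, chr9:21385398-21385517, minus strand: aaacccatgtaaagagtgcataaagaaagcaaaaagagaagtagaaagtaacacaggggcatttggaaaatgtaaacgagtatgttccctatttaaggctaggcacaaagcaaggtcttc
IFNA8, chr9:21408996-21409115, plus strand: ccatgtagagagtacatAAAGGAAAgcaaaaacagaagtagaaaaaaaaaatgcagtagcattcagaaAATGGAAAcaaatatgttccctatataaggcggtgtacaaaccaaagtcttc
IFNA1, chr9:21440318-21440437, plus strand: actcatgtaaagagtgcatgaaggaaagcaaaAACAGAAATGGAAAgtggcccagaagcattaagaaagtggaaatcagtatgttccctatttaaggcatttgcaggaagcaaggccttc
IFNE, chr9:21482313-21482432, minus strand: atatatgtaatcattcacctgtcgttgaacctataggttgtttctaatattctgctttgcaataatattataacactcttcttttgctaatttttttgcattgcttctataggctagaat
Within 250 bases before the start, 5 of the 7 members (71.4%) and 14 of the 16 interferon genes of the cluster (87.5%) held a match, against 3841 of 20094 protein-coding genes (19.1%). IFNB1 had 2 matches close together in the stretch shown, and IFNA2 and IFNE had none in the 250 bases. A match is a run of letters and not a bound site.

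The unit of contact used below is the log2 of the observed contact over the mean of all pairs of bins of chromosome 9 at the same distance in the same library (observed/expected), so 0 is the chromosome's mean. Contact among all 12 bins of the cluster was below that mean in every library, and the groups overlapped. It measured -0.43, -0.47 and -0.47 for growing replicates 1 to 3, against -0.47 for RIS replicate 1 and -0.37 for RIS replicate 2, a difference of 0.04 (two-sided exact permutation p = 0.5). With 3 libraries against 2 there are 10 ways to assign the labels and no p below 0.1 can be reached, so no single value here can pass 0.05 and no adjusted value can either. Single contacts were lower in both RIS libraries at both ends of the cluster, most so at the end nearest the centromere. There the bins of IFNA2, IFNA8, IFNA1 and IFNE each had less contact with the 5 bins beyond the cluster in both RIS libraries, and 5 of their 6 pairs with each other were lower, while IFNA2 and IFNA8 overlapped (-0.18, -0.31 and -0.36 in growing against -0.39 and -0.24 in RIS libraries). On chromosome 9, 26.6% of single bins set against 5 bins at the members' distances were lower in both RIS libraries. The share was 23.6% for pairs of bins at most 120 kb apart. The cluster is therefore described in segments of 4 bins: the telomere-side segment (IFNB1, IFNW1, IFNA21 and IFNA4), the middle segment (the other IFNA genes from IFNA7 to IFNA6, and KLHL9) and the centromere-side segment (IFNA13, IFNA2, IFNA8, IFNA1 and IFNE). These segments were drawn with the values known.

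The 5 bins on the centromere side, chr9:21520001-21720000, are called the right flank; they hold the start of MIR31HG and no protein-coding gene. Contact of the whole cluster with the right flank was -0.75, -0.67 and -0.74 in growing against -1.15 and -1.23 in RIS libraries. The groups did not overlap and the difference of -0.46 equals 27.5% less contact in RIS (exact permutation p = 0.1). Contacts behind each library's value numbered between 1373 and 3500. Of all windows of 12 bins set against the 5 bins on one side, 35.2% had both RIS libraries below all growing libraries, so the separation of the groups is common, and the difference was as low or lower in 1.43% of 135154 such windows, whose median was -0.0079. Among growing and RIS libraries with few PCR duplicates by the study's read summary (growing replicates 1 and 2, RIS replicate 1) the difference was -0.43, and among those with many (growing replicate 3, RIS replicate 2) it was -0.48.

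**Figure D1:**
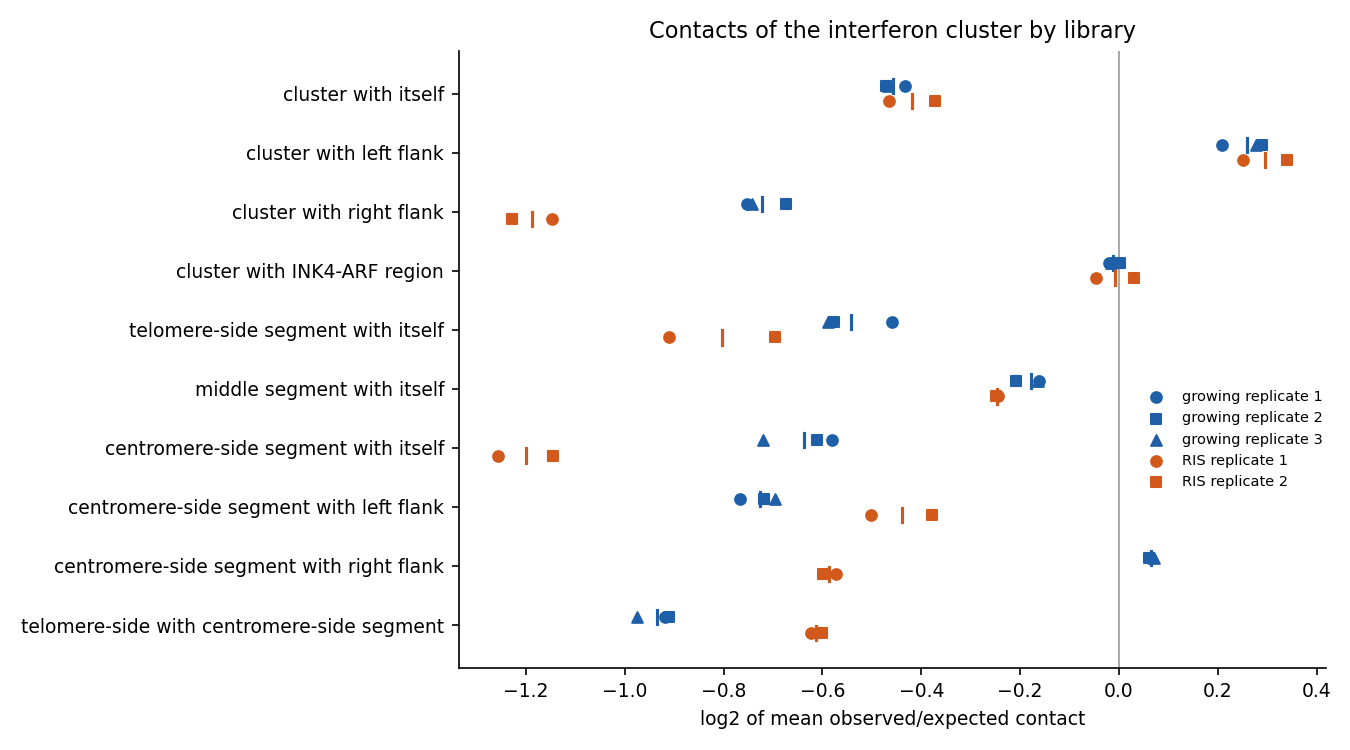
Contacts of the interferon cluster, its segments and its flanks, 1 row a contact, as log2 of mean observed/expected contact on the horizontal axis, with a point for each of the 3 growing and 2 RIS libraries and a bar at each group's mean. The RIS points of the centromere-side segment with itself and with the right flank lie below all growing points (-1.26 and -1.15 against -0.58 to -0.72 for the former), and the RIS points for the telomere-side segment with the centromere-side segment lie above them.

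Of the segments, the centromere-side one had the largest difference in contact with the right flank, -0.65 against -0.27 for the telomere-side (-0.17 without growing replicate 2) and -0.23 for the middle segment. Its contact with the right flank was 0.06, 0.06 and 0.07 in the growing libraries, close to the chromosome's mean, and -0.57 and -0.60 in the RIS libraries. This was 36.3% less contact in RIS. Within the segment itself contact was -0.58, -0.61 and -0.72 in growing against -1.26 and -1.15 in RIS libraries, a difference of -0.56 or 32.3%. On chromosome 9, 32.6% of windows of 4 bins had both RIS libraries below all growing libraries. The telomere-side segment with itself was also lower in both RIS libraries (difference -0.26, but -0.15 without RIS replicate 1 and -0.37 without RIS replicate 2), as was the middle segment (difference -0.07).

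Over longer distances the direction turned. The telomere-side and centromere-side segments were in contact at -0.92, -0.91 and -0.98 in the growing libraries and at -0.62 and -0.60 in the RIS libraries, 25.1% more in RIS. Both segments lay further below the chromosome's mean with themselves, and nearer to it with each other, in RIS than in growing libraries. By distance, pairs of cluster bins 40 to 80 kb apart differed by -0.25, pairs 120 to 200 kb apart by 0.11 with overlapping groups, and pairs 240 to 440 kb apart by 0.29. For the last, growing libraries had -0.98, -0.99 and -0.98 and RIS libraries -0.67 and -0.71, and 26.6% of windows of 12 bins of chromosome 9 had both RIS libraries above all growing ones at these distances.

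Single pairs of members followed the same split. Of the 21 pairs, 9 lie at most 120 kb apart, and 7 of these 9 were lower in both RIS libraries than in all growing ones, while 4 of the 12 more distant pairs were higher and none was lower. Over all pairs of bins of chromosome 9 up to 440 kb apart, 19.3% had RIS below growing and 14.6% above. The shares were 23.6% below and 16.1% above at most 120 kb apart, and 17.7% below and 14.1% above at 160 to 440 kb. The IFNA1 and IFNE bins, which are neighbours, were joined by 237, 307 and 269 contacts in the growing libraries and by 95 and 120 in the RIS libraries. Their observed/expected contact went from -0.50, -0.32 and -0.47 to -1.21 and -1.26, or 42.8% less. IFNA8 and IFNA1, both on the plus strand, had 208, 224 and 186 contacts in growing against 69 and 110 in RIS libraries, 41.0% less after balancing. IFNA8 and IFNE were 38.3% lower. IFNA2 and IFNE were 37.5% lower on 8 and 18 contacts in the RIS libraries, and their difference of -0.68 was -0.33 without RIS replicate 1 and -1.03 without RIS replicate 2. At the other end IFNB1 and IFNW1 were 21.7% lower, a difference of -0.35 that was -0.15 without RIS replicate 1 and -0.55 without RIS replicate 2. IFNW1 and IFNA21 were 20.5% lower (-0.33, and -0.22 without RIS replicate 1), with 431, 521 and 495 contacts in growing against 221 and 393 in RIS libraries. IFNA21 and IFNA8, 240 kb apart, had 55, 60 and 54 contacts in growing and 52 and 85 in the shallower RIS libraries, which after balancing was 62.6% more.

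Every pair of bins up to 2 Mb apart was also tested across the genome with limma on log2 balanced values, with Benjamini-Hochberg adjustment over 1966522 pairs. In RIS limma called 42 pairs higher (0.00214%) and 108 lower (0.00549%), a balance that turned to 114 higher and 35 lower without growing replicate 1 and became 155 higher and 5983 lower without RIS replicate 2. Of the 726 pairs tested between bins of the stretch from chr9:20000001-21720000 it called 1, lower in RIS, and this pair was also the only one called among the 767 pairs with a bin of the cluster. It joins the bin of IFNE and MIR31 to the next bin, where MIR31HG starts. The pair held 847, 980 and 986 contacts in growing against 316 and 427 in RIS libraries. Its log2 fold change was -0.90 (SE 0.0716, limma adjusted p = 0.0206), 46.5% less. It lost its call when any 1 of the 3 growing libraries was left out, with the replicate number as a block, and without a trend in limma's prior variance.

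Among the 48 tested pairs of the cluster and the right flank the median log2 fold change was -0.43, against 3e-04 over all tested pairs, and 18 (37.5%) had an unadjusted limma p under 0.05, of which 0 were higher in RIS. Over all tested pairs that share was 11.4%, or 5.27% higher and 6.15% lower. The pairs behind this share were not matched to those of the cluster for distance or number of contacts. Within the cluster limma called 0 of 66 pairs, with 19 (28.8%) at an unadjusted p under 0.05. With the left flank it called 0 of 246, with 13 (5.28%), a share below that of all tested pairs. When limma was given voom weights, which let sparse pairs count for less and were chosen after the data were seen, it called 6258 pairs higher (0.318%) and 2979 lower (0.151%) over the genome. Without RIS replicate 1 these became 811 higher and 115 lower, and without RIS replicate 2 they became 834 and 140. Of the cluster's 767 pairs it then called 13, of which 11 were lower in RIS, but 5 without RIS replicate 1 and 3 without RIS replicate 2. The lower pairs included IFNA1 with IFNE (log2 fold change -0.85, adjusted p = 2.34e-05), IFNA8 with IFNA1 (-0.78, adjusted p = 0.00112), IFNW1 with IFNA21 (-0.32, adjusted p = 0.0427) and IFNA1 with the bin at chr9:21760001-21800000 (-0.85, adjusted p = 2.42e-06), all by limma with voom weights. Both higher pairs held IFNA8, with IFNA21 (0.72, adjusted p = 0.0321 by the same test) and with the bin of IFNA7, IFNA10, IFNA16 and IFNA17 (0.59, adjusted p = 0.0494). Neither was called when growing replicate 1, growing replicate 2, RIS replicate 1 or RIS replicate 2 was left out, and the same held for IFNW1 with IFNA21. IFNA8 with IFNA1 lost its call without either RIS library. IFNA1 kept its calls with IFNE and with the bin at chr9:21760001-21800000 whichever library was left out, as did the pair of the IFNE bin and the next bin.

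**Figure D2:**
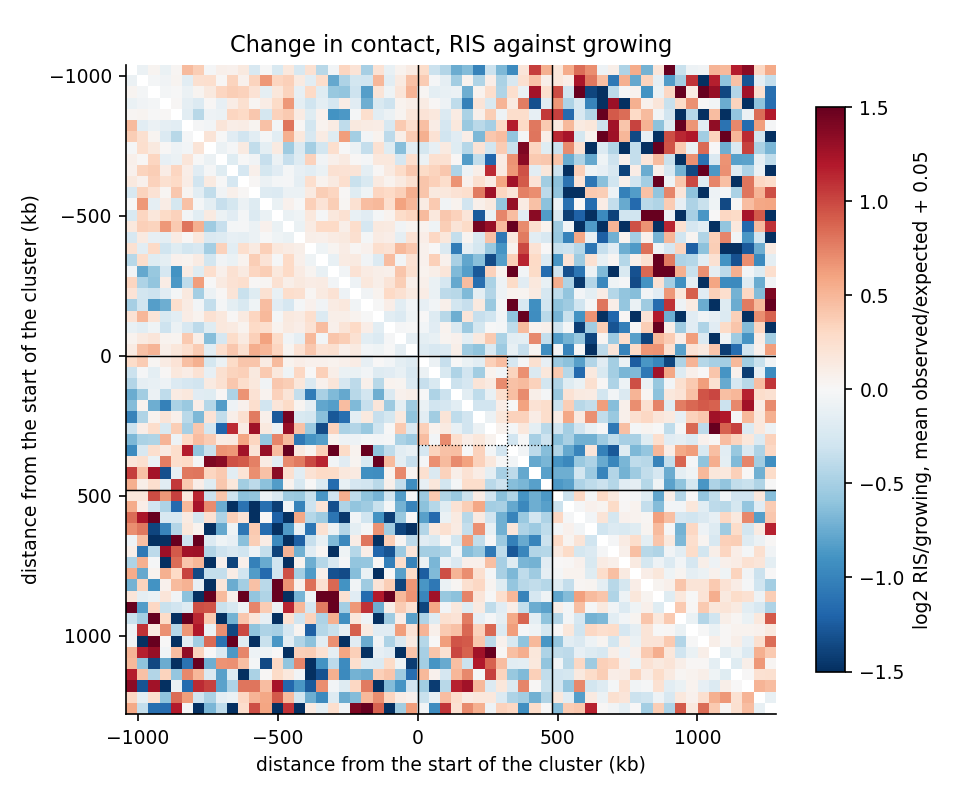
Change in contact between all pairs of 40 kb bins around the cluster, as log2 of RIS over growing mean observed/expected contact (blue lower, red higher in RIS), with both axes in kb from the start of the cluster, solid lines at the ends of the cluster and dotted lines at the start of its centromere-side segment. Pairs far from the diagonal rest on few contacts and scatter. The blue patch joins the centromere-side segment to itself and to the right flank, where the difference of the means was -0.56 and -0.65.

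Member by member, contact with the right flank was lower in both RIS libraries for 5 of 7, against 26.6% of single bins of chromosome 9 set against 5 bins at the same distances. IFNA1 had 0.49, 0.56 and 0.53 in growing against -0.24 and -0.22 in RIS libraries. It passed from above to below the chromosome's mean. IFNE, next to the right flank, had 0.74, 0.86 and 0.81 in growing against 0.32 and 0.27 in RIS libraries, staying above the mean. IFNA8 had -0.55, -0.79 and -0.54 against -1.40 and -1.41. IFNA2 and IFNB1 had differences of -0.75 and -0.53, on as few as 23 and 25 contacts in a library, while the groups overlapped for IFNW1 (0.05) and IFNA21 (-0.12). The coverage of a bin, here its number of contacts within chromosome 9 before balancing, was lower in both RIS libraries for some members. As a multiple of the chromosome's median, the IFNE bin had 1.63, 1.69 and 1.57 in growing against 1.37 and 1.23 in RIS libraries. The IFNA1 bin had 1.14, 1.16 and 1.10 against 0.97 and 0.92. Coverage was also lower in both RIS libraries for IFNA8, and for IFNW1, whose right-flank contact overlapped between groups. The bins of IFNB1, IFNA21 and IFNA2 had coverage that overlapped between groups. How often bins of chromosome 9 have lower coverage in both RIS libraries was not counted. Whether coverage plays a part in the differences was not tested.

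On the telomere side lie 26 bins, the left flank, from chr9:20000001-21040000, with the protein-coding genes MLLT3 (a reader of histone acylation in the super elongation complex), FOCAD (focadhesin) and HACD4 (an enzyme of fatty acid elongation). Contact of the cluster with all of it did not separate the groups: 0.21, 0.29 and 0.28 in growing against 0.25 and 0.34 in RIS libraries, a difference of 0.04 (exact permutation p = 0.6). It did with the bins of MLLT3 and of HACD4, but not with those of FOCAD. With the bins of MLLT3 the cluster had 0.15, 0.18 and 0.09 in growing against 0.36 and 0.42 in RIS libraries, 18.6% more. With HACD4, the gene next to IFNB1, it was 11.1% lower in RIS. Of windows of 12 bins of chromosome 9 set against bins placed like those of MLLT3, 32.3% were higher in both RIS libraries, and 32.3% were lower for bins placed like those of HACD4, so such a separation is common. The centromere-side segment had more contact with the left flank in both RIS libraries, by 0.29. IFNA8 was higher by 0.48, IFNA1 by 0.42, IFNA2 by 0.25 and IFNB1 by 0.17, IFNW1 and IFNA21 were lower, and IFNE overlapped. Of single bins of chromosome 9 set against 26 bins at the same distances, 24.7% were higher and 27.4% lower in both RIS libraries. Without RIS replicate 1 the difference of IFNA2 was 0.13 and that of IFNA21 -0.06, and without RIS replicate 2 that of IFNA1 was 0.26.

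Beyond the right flank lies the INK4-ARF locus with CDKN2A, which encodes the cell cycle inhibitors p16INK4A and p14ARF, and CDKN2B, which encodes p15INK4B. Over the 14 bins from chr9:21760001-22320000 the contact of the whole cluster was -0.02, 0.0019 and -0.02 in growing against -0.05 and 0.03 in RIS libraries, a difference of 0.0038 with overlapping groups (exact permutation p = 0.9). The segments differed in direction. The centromere-side segment had 0.42, 0.40 and 0.41 in growing against 0.14 and 0.17 in RIS libraries, 16.3% less, and the middle segment was 17.2% higher. With the bins that hold CDKN2A and CDKN2B alone the cluster was 13.4% higher in RIS, on 182 to 323 contacts per library. There the centromere-side segment was higher too, with -0.07, -0.08 and -0.15 in growing against 0.05 and -0.04 in RIS libraries, the opposite of its direction over all 14 bins. With 1 library left out this difference ran from 0.06 to 0.15. How often windows of chromosome 9 separate the groups in these ways was not counted. Nor was it counted for a segment with the right flank, with the left flank or with another segment. For the contacts above that have a share beside them, such separation was common.

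The insulation score states how much contact crosses a position, as the log2 of the contact between the 520 kb on either side over the chromosome's mean, so that a minimum is a border between domains. The deepest minimum of the stretch lay at chr9:21160000, between the bins of IFNW1 and IFNA21, in all 5 libraries, with a depth against its surroundings (prominence) of 1.81, 1.87 and 1.82 in growing against 1.99 and 1.95 in RIS libraries. A shallow minimum at the other end was deeper in RIS. It lay at chr9:21440000, between the bins of IFNA8 and IFNA1 (in growing replicate 1 at chr9:21400000), with a prominence of 0.12, 0.15 and 0.13 in growing against 0.44 and 0.46 in RIS libraries. Above the bin of IFNA1, at chr9:21480000, the score was -0.39, -0.34 and -0.39 in growing against -0.81 and -0.82 in RIS libraries. This difference of -0.44 was the lowest of the stretch. Both RIS libraries were below all growing libraries at 34.5% of the positions of the genome, at the upper edge of the bins of all 7 members, at 8 of the 12 positions of the cluster and at all 5 of the right flank. They were above all growing libraries at 36.6% of the positions of the genome, at 2 of the 12 of the cluster and at 17 of the 26 of the left flank. Neighbouring positions share most of the contacts they are scored on, so these positions are not separate observations. At the lower edge of the IFNA2 bin the groups overlapped (-0.48, -0.45 and -0.49 in growing against -0.54 and -0.45 in RIS libraries). The mean over the cluster was -0.75, -0.75 and -0.73 in growing against -0.89 and -0.83 in RIS libraries, a difference of -0.11 (exact permutation p = 0.1).

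**Figure D3:**
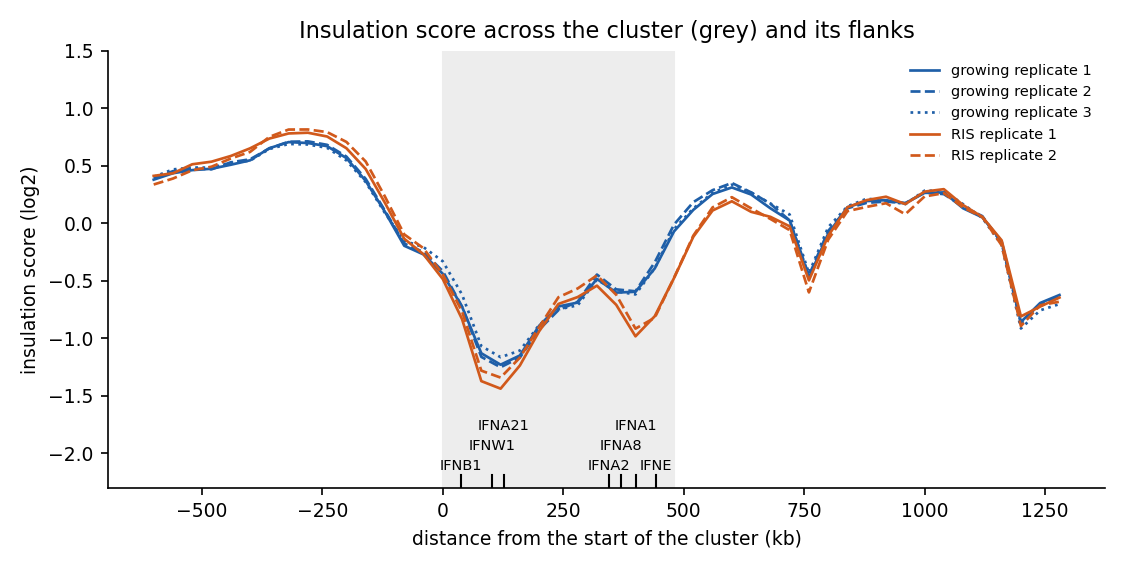
Insulation score (log2, vertical axis) by distance in kb from the start of the cluster, 1 line for each of the 3 growing and 2 RIS libraries, with the cluster in grey and the 7 members marked. All lines share the minimum between IFNW1 and IFNA21, and the RIS lines fall below the growing lines between IFNA8 and the right flank, to -0.98 and -0.92 at the border between IFNA8 and IFNA1, where the growing lines lie near -0.60.

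Borders between domains often hold CTCF, a DNA-binding protein at which the ring complex cohesin halts. The core of its motif, written as CC, any 3 letters, AGG, any letter and GGC, was searched for on both strands of the cluster and right flank. It was found 10 times, in 8 of the 12 cluster bins (66.7%) against 1532 of 2965 bins of chromosome 9 (51.7%), and in none of the bins of IFNA2, IFNA1 and IFNE. Shown are the matches nearest to the 2 borders and the only one in the right flank, each on its own strand with the core in capitals and 12 bases on either side.
chr9:21149741-21149776, minus strand: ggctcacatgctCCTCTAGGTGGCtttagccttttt
chr9:21198602-21198637, plus strand: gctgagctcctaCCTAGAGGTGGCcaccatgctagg
chr9:21401627-21401662, plus strand: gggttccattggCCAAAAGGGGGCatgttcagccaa
chr9:21696168-21696203, minus strand: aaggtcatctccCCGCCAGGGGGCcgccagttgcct
The first and second flank the border between IFNW1 and IFNA21 and point in opposite directions, the third lies in the bin of IFNA8, and between it and the fourth no match was found. Letters do not show binding, and CTCF was not measured here.

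The compartment score, the first component of the contact map in bins of 120 kb, is above 0 for the active A compartment and below 0 for the inactive B compartment. In growing cells the cluster was a stretch of B from IFNW1 to IFNA1, with A regions on both sides and a bin near 0 at its telomere-side edge. The mean of the cluster was taken over the 5 bins of 120 kb that overlap it, which reach into both flanks. This mean was -0.37, -0.43 and -0.32 in growing against -0.06 and -0.10 in RIS libraries, a difference of 0.29 toward A (exact permutation p = 0.1). Of these 5 bins, 3 were higher in both RIS libraries, against 35.5% of the bins of chromosome 9. The bin of IFNA2, IFNA8 and IFNA1 had -0.53, -0.70 and -0.65 in growing against 0.12 and -0.13 in RIS libraries, so that 1 RIS library had it in A and the other in B. The next bin toward the telomere, with IFNA5, KLHL9 and IFNA6, went from -1.11, -1.16 and -1.13 to -0.53 and -0.61 and stayed in B. The bin of IFNW1 and IFNA21 was B in all libraries, that of IFNE was A in all (0.87 to 1.03), and that of IFNB1 lay near 0, both of the latter with overlapping groups. The share of chromosome 9 in A was itself 47.9%, 47.1% and 46.6% in growing against 56.2% and 54.4% in RIS libraries, and its part in the shift of the cluster was not tested.

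**Figure D4:**
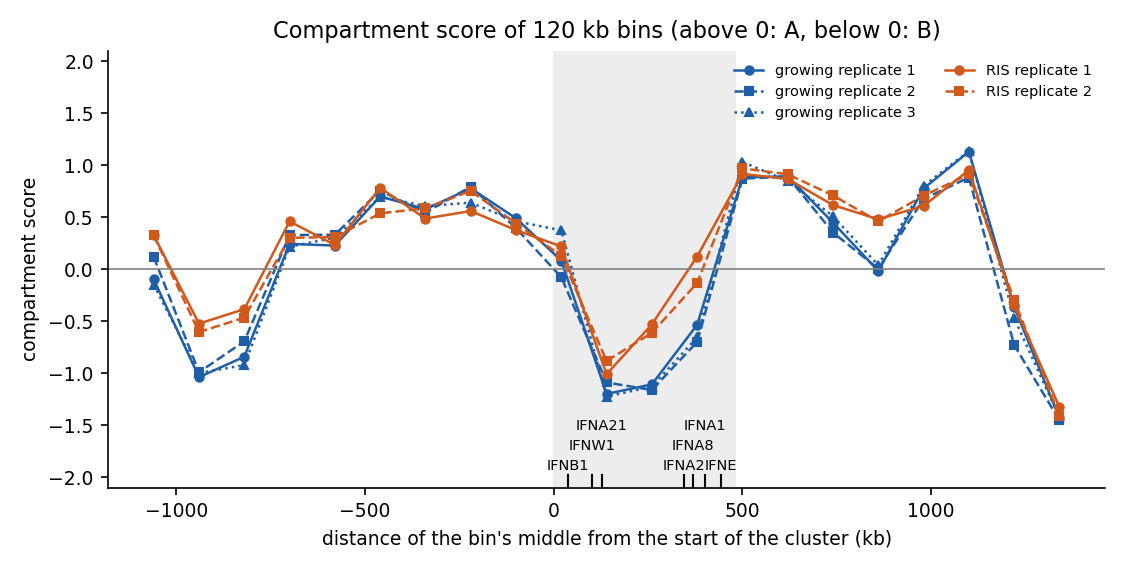
Compartment score of 120 kb bins (above 0 A, below 0 B) by distance in kb from the start of the cluster, 1 line for each of the 3 growing and 2 RIS libraries. Within the cluster (grey) the RIS lines lie above the growing lines from IFNW1 to IFNA1, most at the bin of IFNA2, IFNA8 and IFNA1 (means -0.63 in growing and -0.0043 in RIS), and meet them at IFNE.

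Members that share a 120 kb bin were set apart with a measure at 40 kb. It is the log2 of a 40 kb bin's contact with the 20% of bins of chromosome 9 that scored highest (far A) over that with the 20% that scored lowest (far B), taken beyond 2 Mb. IFNA1 had -0.22, -0.42 and 0.24 in growing against 1.64 and 1.95 in RIS libraries. IFNE had 1.48, 1.21 and 0.95 against 2.31 and 2.38, and IFNA8 -1.40, -1.90 and -1.06 against 0.20 and -0.34. IFNA2 was higher as well and the other 3 members overlapped, while 35.6% of the bins of chromosome 9 were higher in both RIS libraries. The median bin was higher by 0.32, and 12.7% of bins differed as much as that of IFNA1 or more.

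The share of a bin's contacts that it makes with other chromosomes was added to the measures after the values had been seen. The IFNE bin made 13.5%, 12.4% and 12.2% of its contacts with other chromosomes in growing against 28.2% and 30.3% in RIS libraries. The IFNA1 bin made 10.3%, 9.68% and 10.05% against 26.7% and 26.1%. Among 69632 bins of the genome these ranked 9 and 10 by the difference between groups, which was 16.6 and 16.4 percentage points. The median of all bins went from 10.1% ± 0.20 (SD, n = 3) to 12.9% ± 0.11 (SD, n = 2), and 77.9% of bins were higher in both RIS libraries than in all growing ones, so direction alone does not mark the cluster. Ligation between fragments that did not lie together raises this share over a whole library, and its part in the higher shares of the RIS libraries was not tested.

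All 12 bins of the cluster were higher in both RIS libraries. For the 7 members the size of the difference followed their order along the chromosome: it was 3.62 percentage points for IFNB1, 5.18 for IFNW1, 6.62 for IFNA21, 7.99 for IFNA2 and 10.1 for IFNA8 before the 16.4 of IFNA1 and 16.6 of IFNE. The bins between members did not all follow this order. The bin before that of IFNW1, chr9:21080001-21120000, differed by 5.53, and that of KLHL9 and IFNA6, before IFNA2, by 9.14. The cluster as a whole had 10.2% ± 0.27 (SD, n = 3) in growing and 18.7% ± 0.42 (SD, n = 2) in RIS libraries, 1.84-fold. The left flank differed by 3.66 and the right flank by 8.84 percentage points. Contacts within 200 kb made up 38.5%, 41.2% and 39.9% of those of the IFNE bin in growing against 23.4% and 24.7% in RIS libraries, and 34.0%, 33.7% and 32.7% against 20.1% and 24.0% for the IFNA1 bin. For the median bin the groups overlapped (35.6%, 34.9% and 35.0% against 34.4% and 36.7%). Contacts with other chromosomes behind these shares numbered 566 to 1226 for the IFNE bin, and the intervals such counts allow cover counting error only. The lower coverage of the IFNA1 and IFNE bins in RIS, given above, counts contacts within chromosome 9 only. It falls as the share with other chromosomes rises, so it is no separate measure of these bins. Whether their total depth differed was not tested. Balancing gives every bin the same sum, so a higher share with other chromosomes also leaves less contact within chromosome 9. The lower contact of the IFNA1 and IFNE bins with neighbours and the right flank, and the lower insulation there, are therefore not fully separate from this share. The same holds for their share within 200 kb. How much of these differences it makes up was not tested.

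**Figure D5:**
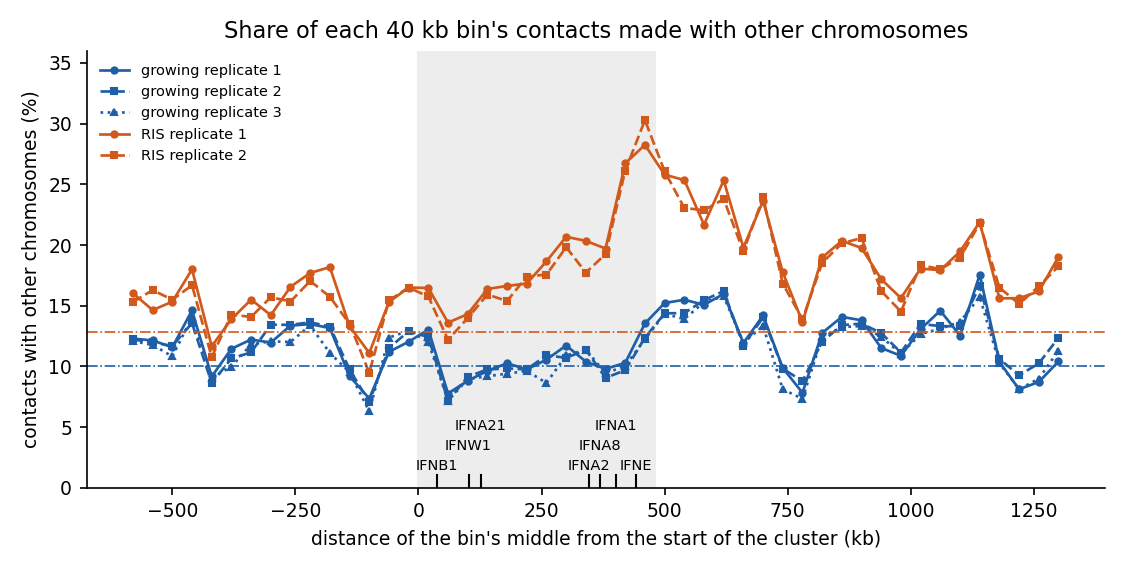
Share of each 40 kb bin's contacts made with other chromosomes (%, vertical axis) by distance of the bin's middle from the start of the cluster in kb, 1 line for each of the 3 growing and 2 RIS libraries. Within the cluster (grey) the RIS lines run from 16.5% and 15.8% at IFNB1 through 14.3% and 14.0% at IFNW1 to 28.2% and 30.3% at IFNE, without rising at every bin. The growing lines stay between 7.17% and 13.5%.

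Contact of the cluster with itself was set against that of 3 other clusters of secreted factors, the IL1, CXCL and MMP genes of the senescence-associated secretory phenotype. Self-contact of the IL1 cluster differed by 0.15 and that of the CXCL cluster by 0.28, higher in RIS, and that of the MMP cluster by -0.06. Taken library by library as interferon minus other cluster, the difference between groups was -0.11 for IL1, -0.24 for CXCL and 0.10 for MMP. The groups did not overlap in any of the 3 comparisons (exact permutation p = 0.1 for each, also after Benjamini-Hochberg adjustment over the 3). Self-contact of the interferon cluster itself overlapped between groups, as given above. How often such a difference between 2 windows separates the groups over the genome was not counted, so these separations are not marked as unusual. Without RIS replicate 1 the comparison with IL1 gave -0.03, and without RIS replicate 2 that with MMP gave 0.06.

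The rest of the interferon pathway was read from the same genome-wide tests. Of 37 genes in lists of receptors and receptor kinases, signalling to the interferon genes, interferon-stimulated genes and other interferon classes, limma called a pair of bins for 1, and with voom weights for 3, with 2 higher and 1 lower in RIS. Of their 1655 pairs this was 0.181% higher and 0.0604% lower with voom weights, against 0.318% and 0.151% of all tested pairs, so neither share was above that of the genome. The single limma call was lower, at BST2, which encodes tetherin, a membrane protein that holds virus particles on the cell. With voom weights IFNAR2, the signalling chain of the receptor, had 2 higher pairs of 39 tested and CXCL10, an interferon-induced chemokine, 1 of 46. IFIH1, the RNA sensor MDA5, had 1 lower pair of 54. The 4 genes of the other interferon classes (IFNG, IFNL1, IFNL2 and IFNL3) had none of 209, and the 7 members of the cluster had 3 higher (0.67%) and 14 lower (3.12%) of 448, counting a pair of members for both. By voom on recovered contacts, which fixed the order in which pathway genes are named, OAS1 had 6 pairs called, all higher, ahead of IFNAR2 with 4 and OASL and RSAD2 with 3 each. Recovered contacts are not balanced. On balanced values OAS1, OASL and RSAD2 had 0 pairs called, by limma and with voom weights, of 55, 33 and 75 tested. Voom on recovered contacts called 0.858% of all tested pairs higher and 0.402% lower.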

How the data were processed

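The authors processed each Hi-C library separately with HiC-Pro, named with FastQC in the submitters' notes, against hg19, with artefacts and duplicates removed, and the deposited signal is the ICE-balanced contact per pair of 40 kb bins, each library brought to a total of 200000000. Balancing gives every bin the same sum, so a bin that loses contacts is scaled up and its shares, not its depth, are compared. A factor for each bin turned 100% of the values back into whole contacts (within 0.05 of a whole number, or 0.1% of it above 50), which served as depth and as an alternative. The 4 capture libraries held no value in the stretch studied, so the planned capture comparison was not made.

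Observed/expected contact, the insulation score (13 bins to either side, smallest prominence 0.1), the compartment score and shares of contacts were compared between groups with the exact permutation test, two-sided. Pairs up to 2 Mb apart with a mean scaled value of at least 5 were tested with limma on log2 values (pseudocount 0.5, loess span 0.3, Benjamini-Hochberg at 5%), with a trend in the prior variance that was added after simulated data had shown few recovered changes without it. Alternatives covered values, expected contact, summary, bin sizes, weights, blocks and each library left out. The members, lists and tests were chosen with earlier results of these data known. Named are the 7 members, the other genes of the stretch, CDKN2A, CDKN2B and the pathway genes with most calls by limma or voom; BST2, CXCL10 and IFIH1 were added after their calls were seen. A result of the pathway lists is not reported here. Gene positions, names and sequences came from a GRCh37 genome and annotation, the build of the files. Software was R 4.3.3 with limma 3.58.1 and Python 3.11.15 with numpy 2.4.6, pandas 2.3.3 and scipy 1.17.1.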

Additional observations from a re-analysis of the deposited data

How the results depend on the processing

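Of the 10 differences that answer a comparison, 7 kept their direction under every alternative run, and 3, all with overlapping groups, changed it. The 10 include the cluster's share of contacts with other chromosomes, which kept its direction but was not planned and was added after the values had been seen. Self-contact of the cluster, 0.04 higher in RIS, became -0.0225 when log2 values were averaged, and spanned -0.0092 (without RIS replicate 2) to 0.0839 with 1 library left out. Contact with the left flank spanned -0.0081 (without RIS replicate 2) to 0.081 in this way. Contact with the INK4-ARF region, 0.0038, became -0.0748 on recovered contacts, -0.0083 with the expected contact of all chromosomes and -0.0033 with averaged log2 values, and spanned -0.0346 to 0.0422 with 1 library left out, with the sign turned without growing replicate 1 or RIS replicate 2. Contact with the right flank stayed between -0.50 and -0.33 under all alternatives, the compartment score between 0.23 and 0.37 and the insulation score between -0.165 and -0.08. Among single values, all with overlapping groups, 7 turned with 1 library left out: contact of the telomere-side segment with the left flank (-0.0102 to 0.0625) and with the middle segment (-0.0265 to 0.048), the compartment score of IFNB1 (-0.0546 to 0.1704) and of IFNE (-0.0152 to 0.0654), right-flank contact of IFNW1 (-0.3737 to 0.3216) and IFNA21 (-0.2749 to 0.0285), and left-flank contact of IFNE (-0.1316 to 0.0198). When the differences within the classes of few and of many duplicates were averaged, 4 of these turned. The classes gave 0.04 and -0.04 for the middle segment (mean of both -0.0004) and 0.22 and -0.25 for the compartment score of IFNB1 (-0.0147). They gave 0.20 and -0.25 for right-flank contact of IFNW1 (-0.0261) and 0.04 and -0.06 for the compartment score of IFNE (-0.0119). Right-flank contact of IFNA21 also differed in sign between the classes (0.11 and -0.44), but its mean did not turn.

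The single pair called by limma, for the stretch and for the cluster, was 0 and 0 without a variance trend, 19 and 22 with voom on recovered contacts, 11 and 13 with voom weights, and 0 to 3 and 0 to 4 with 1 library left out; with voom weights and 1 library left out it was 2 to 14 (8 without growing replicate 2) and 3 to 17 (9 without growing replicate 2, 5 without RIS replicate 1). Over the genome the 150 pairs called became 230 with a pseudocount of 1, 60 and 331 with a minimum value of 10 and 1, 1196 without a variance trend, 72 with the class of duplicates as a block, 85 to 166 without a growing library, with more higher than lower in each, 927 (919 lower) without RIS replicate 1 and 6138 (5983 lower) without RIS replicate 2. Replicate numbers 1 and 2 are shared by both groups, and the deviations of libraries with the same number correlated at 0.01 and 0.0039. With 2 RIS libraries, growing libraries set against the other number gave the same values with the sign turned. These correlations therefore cannot decide whether equal numbers mark pairs. With the replicate block limma called 153 pairs over the genome (102 higher and 51 lower), 0 pairs in the stretch and 0 in the cluster, and 13 and 16 with voom weights; right-flank contact differed by -0.47, self-contact by 0.03, the compartment score by 0.32, the insulation score by -0.11 and the share of contacts with other chromosomes by 8.43 percentage points, and left-flank contact of IFNE turned to 0.0197. The capture comparison and its alternatives were not run, as no bin of the stretch held a capture value. Leaving out sparse bins gave no other value, since no bin used had a coverage under 0.5 times the chromosome's median, and the cluster and the INK4-ARF region have no pair at 40 kb to leave out. Few contacts in single pairs of bins, and tests with 3 libraries against 2, limit what could be called.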
